A study of Mus musculus with 30 samples.

Results

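Non-tumor colon of wild-type (WT) mice that received azoxymethane and dextran sulfate sodium (AOM-DSS) while drinking spermidine was compared with colon of WT mice that drank spermidine alone. The libraries were taken by their sample labels, which put 3 in each group, so 6 of the 30 libraries of the series carry the comparison. All of these mice were male C57BL/6 animals of 8 to 12 weeks with an intact Smox gene, and all drank 14 mM spermidine for 56 days. The AOM-DSS mice also received an intraperitoneal dose of 12.5 mg/kg azoxymethane and 3 cycles of 4% dextran sulfate sodium of 5 days each, starting on days 5, 26 and 47. Both groups are labelled as without tumor, the AOM-DSS group as with colitis and the controls as without. The series states 3 mice per group. The labels do not say which stretch of the colon was taken or whether the muscle wall was included. The rest of the series holds untreated and AOM-DSS colon without spermidine, the same treatments in Smox-/- mice, and tumors, and some of these libraries are used below for contrast.

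Azoxymethane is an alkylating colon carcinogen, and dextran sulfate sodium strips the colon lining, so that repeated cycles alternate injury with regrowth. Spermidine is a polyamine that cells make from ornithine and that spermine oxidase, the product of Smox, makes back from spermine. In the healthy colon the cells at the crypt surface absorb salt and water, burn butyrate delivered by bacteria, make ketone bodies and detoxify foreign compounds, while the crypt base holds the dividing cells. Hox genes, which lie in 4 clusters, keep a record of position along the gut.

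The 6 libraries held 33060607 to 64655937 counts, the fewest in the third library after AOM-DSS. Values are given as CPM, counts scaled to library size, which are not divided by gene length, so levels are compared between groups and not between genes. Defining colon genes were present on both sides. Slc26a3, chosen after its values were seen and the chloride and bicarbonate exchanger of the colon surface, was at 638, 1265 and 1794 CPM in the spermidine libraries and at 329.8, 419.7 and 692 CPM after AOM-DSS. Muc2, the main mucin of goblet cells and chosen likewise, was at 5187, 1700.1 and 607 CPM and at 609.6, 1549 and 1280.1 CPM. Both genes overlapped between the groups, and Muc2 was highest in the first spermidine library. The 13 tested genes that mark the distal hindgut had a mean level of 2.82 ± 0.07 on the log2 CPM scale with spermidine and 2.90 ± 0.16 after AOM-DSS (mean ± SD, n = 3 each). That mean weighs genes of few counts like abundant ones. Summed levels did not overlap, at 653, 586 and 467 CPM with spermidine and at 865, 798 and 1028.5 CPM after AOM-DSS. Of the 13 genes, 8 were higher and 3 lower in all 3 AOM-DSS libraries, beside 17.3% and 19.1% of all genes tested.

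Summed marker levels of several other tissues differed between libraries. The 12 skeletal muscle genes summed to 405, 21.6 and 160.2 CPM in the spermidine libraries and to 10.2, 7.52 and 8.54 CPM after AOM-DSS, with Myh4 and Pvalb at 0 counts in all 3 AOM-DSS libraries. The 16 squamous epithelium genes summed to 369, 7.98 and 10.4 CPM and to 15.7, 12.8 and 5.68 CPM, so the high value lay in 1 spermidine library, and Ivl and Sprr3 were at 0 counts in every AOM-DSS library. Smooth muscle genes summed to 2817, 4051 and 5333 CPM and to 1978, 1734 and 1504 CPM. Of the 16 smooth muscle genes 14 were lower in all 3 AOM-DSS libraries than in any control. So were 14 of the 18 genes of enteric neurons and glia and 9 of the 10 tested adipocyte genes, beside 19.1% of all genes tested. No gene on the smooth muscle, neuron, skeletal muscle or squamous list passed the edgeR test described next. In that order, 1, 8, 8 and 8 were at an unadjusted p under 0.05, and 0, 0, 7 and 5 were called by DESeq2. Sprr1a, a small proline-rich protein gene kept in another list, did pass and is described below. The share of counts from the mitochondrial genome ran from 4.84 to 8.65% with spermidine and from 2.57 to 3.63% after AOM-DSS. In bulk tissue fewer cells of a type and less RNA per cell cannot be told apart, and the part of these tissues in the changes below was not tested.

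**Figure D1:**
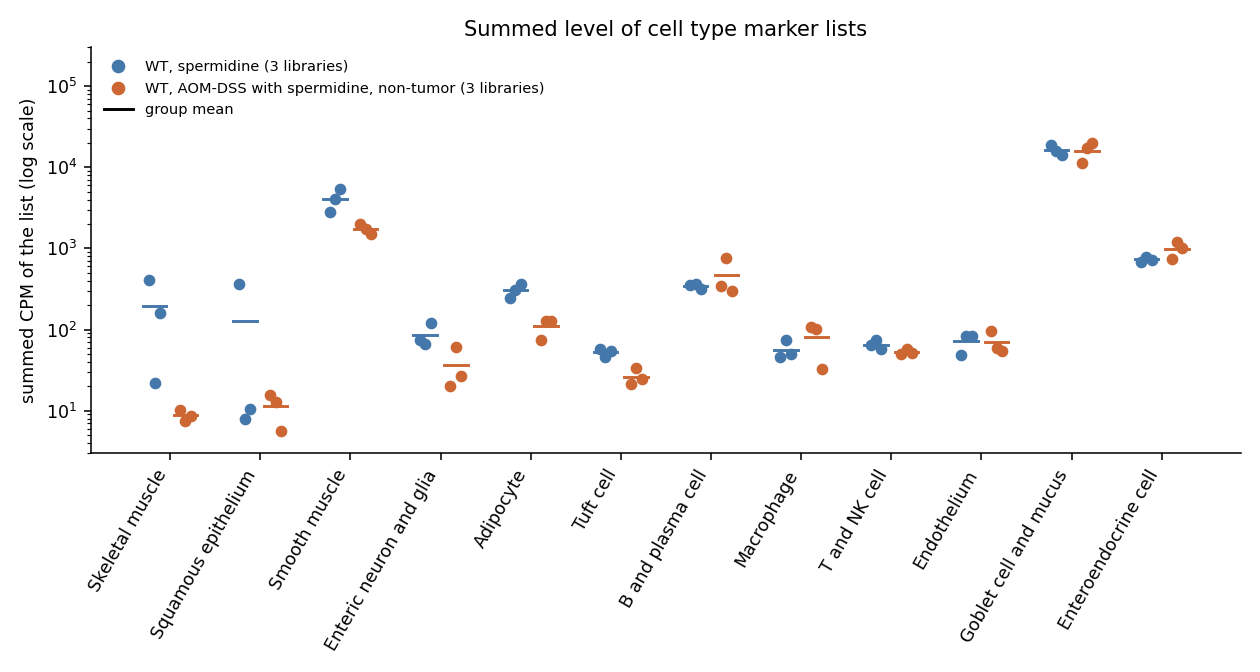
Summed CPM (log scale) of 12 cell type marker lists in each library, with blue points for WT colon given spermidine, orange points for the AOM-DSS group and bars for group means. Skeletal muscle genes reach 405 CPM in 1 spermidine library and stay at or under 10.2 CPM after AOM-DSS, while goblet sums overlap between the groups.

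Across 19558 tested genes, 374 passed an adjusted p of 0.05 in edgeR's quasi-likelihood test with Benjamini-Hochberg adjustment (1.91%). Of these 85 rose (0.435%) and 289 fell (1.48%). Falls were also the larger changes, with 259 of 289 past 2-fold and 191 past 4-fold, against 34 and 15 of the 85 rises. The median log2 fold change was -2.88 among the genes that fell, 0.86 among those that rose and 0.01 over all genes. Among all genes tested, 3388 had all 3 AOM-DSS libraries above all 3 controls (17.3%) and 3729 had all 3 below (19.1%). These shares are the background for the list counts of such gaps given below. Such a gap without overlap was present in 84 of the 85 rises and in all 289 falls, and 265 of the falls and 81 of the rises were protein-coding genes. The number of calls rested on every library of the AOM-DSS group. Without any 1 of these 3 it was 0, with the smallest adjusted p between 0.0598 and 0.108 and 2457 to 3136 genes at an unadjusted p under 0.05. The number was 360 without the first spermidine library, which held the most skeletal muscle and squamous RNA. It was 103 without the second and 29 without the third. In that order, 274, 101 and 29 of these calls were among the 374, and 37, 6 and 0 were rises. DESeq2 called 1195 genes on all libraries, and these held all 374. In each of these fits all 374 genes kept their direction. They were chosen on these same libraries. Where the groups do not overlap, leaving out 1 library can hardly reverse a direction, so this is no evidence of stability.

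The gene of spermine oxidase, Smox, did not pass the test. Its level was 48.8, 49.4 and 43.7 CPM with spermidine and 54.1, 47.5 and 46.6 CPM after AOM-DSS, so the groups overlapped, with a log2 fold change of 0.06 ± 0.24 (SE) and an adjusted p of 0.908.

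Of the genes that burn or route fuel, a few fell steeply. Pdk4, the kinase that turns pyruvate away from oxidation when fat is burned, was at 58.9, 46.4 and 55.4 CPM in the spermidine libraries and at 0.784, 1.14 and 0.571 CPM after AOM-DSS. It fell 63.3-fold (log2 fold change -5.98 ± 1.28 SE, adjusted p = 0.021), and each AOM-DSS library was far below each control. Acaa1b, a thiolase of peroxisomal fat oxidation, went from 22.1, 37.8 and 57.8 CPM to 0.163, 0.141 and 0.0952 CPM, 281-fold lower (adjusted p = 0.0121). The 27 genes of butyrate uptake, fatty acid oxidation and ketogenesis, a list that does not hold Acaa1b, held 2 called falls and no rise. Another 22 of its genes were lower without passing the test, 19 of the 27 were lower in all 3 libraries, and the list's median log2 fold change was -0.59 beside 0.01 over all genes. Here and below, list members named without a call were picked for their known role, with values in view. Slc5a8, a sodium-coupled butyrate transporter, had a mean of 265 ± 48.9 CPM with spermidine and 445 ± 110.1 CPM after AOM-DSS (adjusted p = 0.617).

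Genes of salt and water handling moved in both directions. Car1, a carbonic anhydrase of colonocytes, was at 8680.1, 16861 and 22355 CPM in the controls and at 562, 514 and 604 CPM after AOM-DSS, 28.5-fold lower (log2 fold change -4.83 ± 0.97 SE, adjusted p = 0.0165). Guca2a, which encodes the peptide guanylin that signals through guanylate cyclase C, was at 854, 950.2 and 1321 CPM and at 98.6, 238 and 153 CPM, a 6.38-fold fall (adjusted p = 0.0391). The water channel Aqp4 went the other way. It was at 52.2, 55.5 and 17.2 CPM with spermidine and at 322, 393 and 370.1 CPM after AOM-DSS, with no overlap, and rose 8.69-fold (log2 fold change 3.12 ± 0.68 SE, adjusted p = 0.0225). These were the 3 calls among 28 tested genes of the list, of which 20 were lower and 8 higher, with a median log2 fold change of -0.59. Prkg2, a cyclic GMP-dependent kinase that acts downstream of guanylate cyclase C, was outside the list and was at 45.2, 29.1 and 27.4 CPM and at 0.0817, 0.125 and 0.0635 CPM, 351-fold lower (adjusted p = 0.0121).

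In bile acid transport the importer and 1 chain of the exporter fell. Slc10a2, the apical bile acid importer, was at 109, 139 and 99.1 CPM with spermidine and at 8.58, 7.46 and 2.48 CPM after AOM-DSS, an 18.6-fold fall (adjusted p = 0.0346). Slc51a, the alpha chain of the basolateral exporter, was at 75.7, 83 and 110.2 CPM and at 0.0817, 0.188 and 0.0317 CPM, 791-fold lower (log2 fold change -9.63 ± 1.70 SE, adjusted p = 0.0125). Its beta chain Slc51b did not pass the test, with means of 31.2 ± 4.15 and 12.5 ± 0.768 CPM (adjusted p = 0.254), nor did Nr1h4, the bile acid receptor FXR, with means of 82.8 ± 4.65 and 56.4 ± 7.79 CPM (adjusted p = 0.406). Of the 12 tested genes of the list 2 fell and none rose, and 7 were lower in all 3 libraries.

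Among enzymes that handle foreign compounds, 6 of 43 tested genes fell and none rose, and 27 of the 43 were lower in all 3 libraries, with a median log2 fold change of -1.12. Cyp4b1, a cytochrome P450, was at 72.1, 103 and 113 CPM in the controls and at 0.457, 0.266 and 0.73 CPM after AOM-DSS, 205-fold lower (adjusted p = 0.0125). Cyp2c65, a P450 of fatty acid epoxidation, went from 226, 393 and 413 CPM to 11.8, 9.02 and 4.95 CPM, a 39.8-fold fall (adjusted p = 0.0202). The carboxylesterase, glucuronosyltransferase and Cyp3a families hold near-identical genes, between which estimated counts can split reads, so their single values are uncertain. Ces1g and Ces1f fell 51.9-fold and 12.9-fold (adjusted p = 0.0174 and 0.0447), and Ugt2b36 fell 37-fold (adjusted p = 0.0314). Ugt2b5, of the same family and also among the largest falls, was at 28.3, 25.4 and 33.1 CPM and at 0.114, 0.0313 and 0 CPM, 503-fold lower (adjusted p = 0.0182). Cyp3a44 had 380 counts over the 3 spermidine libraries and 0 after AOM-DSS, which against a floor of 3 counts over the group makes it at least 121-fold lower (adjusted p = 0.0402). Aldh1a1, which oxidises retinal and other aldehydes, was at 357, 452 and 494 CPM and at 20.8, 14 and 19.5 CPM, a 24-fold fall (adjusted p = 0.0168). It was the single call among 19 tested aldehyde dehydrogenase genes, whose median log2 fold change was -0.11.

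**Figure D2:**
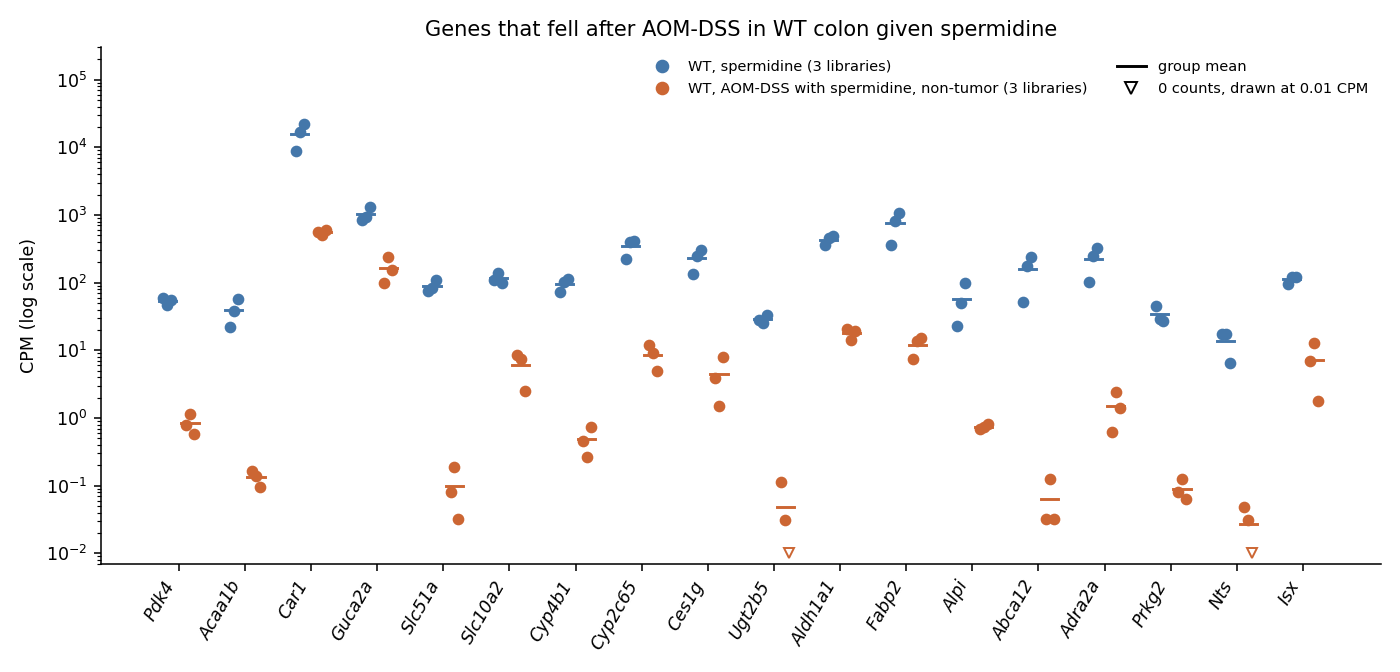
CPM (log scale) of 18 genes that fell, 1 point per library, with blue for WT colon given spermidine, orange for the AOM-DSS group, bars for group means and open triangles for libraries with 0 counts. The groups do not overlap for any of the 18, and the gap is narrowest for Guca2a (6.38-fold) and widest for Abca12 (2207-fold).

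Genes better known from absorptive cells of the small intestine fell too. Fabp2, a fatty acid binding protein of enterocytes, was at 358, 817 and 1076 CPM with spermidine and at 7.51, 13.8 and 15.2 CPM after AOM-DSS, 61.7-fold lower (adjusted p = 0.0182). Alpi, the intestinal alkaline phosphatase of the brush border, went from 23.1, 50.5 and 97.5 CPM to 0.686, 0.735 and 0.825 CPM, a 76.4-fold fall (adjusted p = 0.0175), and Enpep, a brush border peptidase, fell 14.8-fold (adjusted p = 0.0395). These 3 were the calls among 16 tested genes of that list. For Alpi and Enpep the first spermidine library was the lowest of the controls, with 23.1 and 8.46 CPM. Isx, a homeobox factor of the intestinal epithelium that represses carotenoid uptake, was at 94.5, 122 and 121 CPM and at 6.93, 13 and 1.81 CPM, 15.4-fold lower (adjusted p = 0.0425). It was the only call among 22 identity factors. Cdx2, a master factor of intestinal fate, had means of 269 ± 74.3 and 66.3 ± 12 CPM with all 3 AOM-DSS libraries below the controls (adjusted p = 0.144), and Hnf4a had means of 1167 ± 187 and 939 ± 217 CPM (adjusted p = 0.458).

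The 15 largest falls, among genes whose higher group averaged 2 CPM or more, included Slc51a, Cyp4b1, Nts, Ugt2b5, Prkg2 and Acaa1b and also genes of varied function. Abca12, a lipid transporter best known from skin, was at 52, 176 and 243 CPM in the spermidine libraries and at 0.0327, 0.125 and 0.0317 CPM after AOM-DSS, 2207-fold lower (log2 fold change -11.11 ± 1.80 SE, adjusted p = 0.0112). Slc26a1, a sulfate transporter, was at 1.29, 17.4 and 32.7 CPM and at 0.0163, 0.0313 and 0.0317 CPM (adjusted p = 0.0192), so its controls spread widely. H2-T18, a nonclassical MHC class I gene of a family with close copies, was at 48.6, 53.4 and 80.5 CPM and at 0.131, 0.109 and 0.127 CPM, 492-fold lower (adjusted p = 0.0125). Osr2, a zinc finger factor of development, fell 322-fold from 83.3, 44.7 and 31.8 CPM (adjusted p = 0.0125). Adra2a, the alpha-2A adrenergic receptor, fell 149.8-fold from 104, 247 and 323 CPM (adjusted p = 0.0121). St3gal5, which makes the ganglioside GM3, was at 10.5, 65.9 and 89.9 CPM and at 0.31, 0.688 and 0.19 CPM (adjusted p = 0.0168), again with the first spermidine library lowest. Malrd1, known for an effect on bile acid and Fgf15 output of the gut, fell 232-fold (adjusted p = 0.0121). Pbp2 and Cyp4f15 completed the 15 with 4 and 3 counts over the AOM-DSS group.

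Inside the Hoxb cluster a run of 6 neighbouring genes fell. On chromosome 11 of GRCm38, Hoxb8 (96281905 to 96285315), Hoxb7, Hoxb6, Hoxb5, Hoxb4 and Hoxb3 (96323326 to 96347930) all fell. Hoxb8 was at 35, 15.8 and 22.1 CPM with spermidine and at 0.18, 0.313 and 0.19 CPM after AOM-DSS, 104-fold lower (log2 fold change -6.70 ± 1.32 SE, adjusted p = 0.0161). Hoxb6 was at 46.1, 28.2 and 43 CPM and at 1.03, 0.313 and 0.635 CPM, a 59.1-fold fall (adjusted p = 0.0255), and Hoxb7 fell 43.5-fold (adjusted p = 0.0313). For Hoxb3, Hoxb4 and Hoxb5 the falls were 21.1-fold, 20.6-fold and 17.3-fold (adjusted p = 0.036, 0.0174 and 0.0346). Hoxb2, next to Hoxb3, was lower in all 3 libraries but missed the threshold (adjusted p = 0.0551). At the other end, Hoxb9 (96271457 to 96276595) was at 63.3, 41.9 and 46.2 CPM and at 33.8, 36 and 42.5 CPM (log2 fold change -0.43 ± 0.27 SE, adjusted p = 0.376), and Hoxb13, a marker of the distal colon, was at 405, 319.8 and 273 CPM and at 448, 438 and 591 CPM (adjusted p = 0.763). Hoxb9 overlapped between the groups, and Hoxb13 was higher in all 3 AOM-DSS libraries without passing the test. Reads of overlapping and antisense transcripts in the Hox clusters could be shared, since the strand setting of the counting is not given in the sources used here.

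In the Hoxa cluster 1 gene rose. Hoxa7 was at 20.2, 22.2 and 24.3 CPM with spermidine and at 39.1, 46.9 and 44.8 CPM after AOM-DSS and rose 1.96-fold (log2 fold change 0.97 ± 0.22 SE, adjusted p = 0.0252). The other 10 Hoxa genes did not pass, although 8 of the 11 were higher in all 3 AOM-DSS libraries. Hoxa13 was among these 8, at 43.7, 42.9 and 34.5 CPM and at 77, 75.1 and 91.4 CPM (adjusted p = 0.448). None of the 6 tested Hoxc and 8 tested Hoxd genes was called. In those clusters 5 Hoxc genes and 2 Hoxd genes were lower in all 3 libraries and 4 Hoxd genes higher, beside 19.1% lower and 17.3% higher over all genes tested. The 5 Hoxc genes were barely detected, each with 9 to 49 counts over the spermidine group and at most 1 after AOM-DSS.

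**Figure D3:**
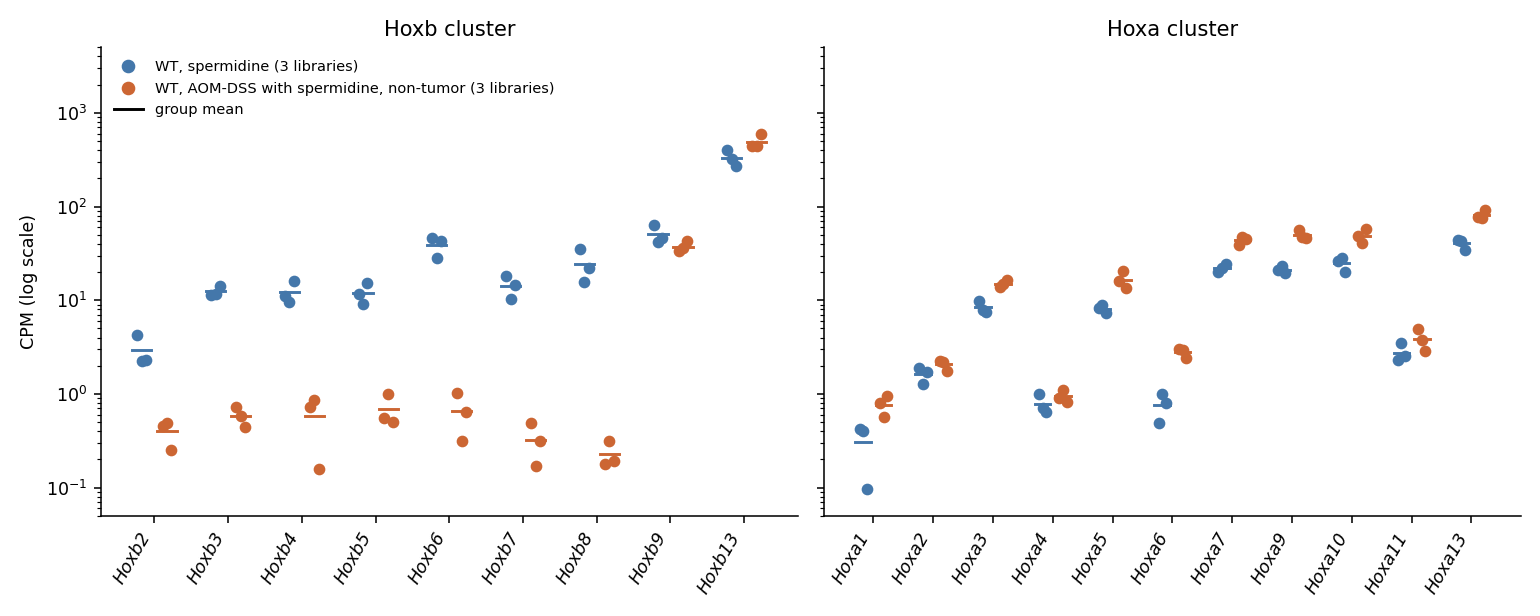
CPM (log scale) of the tested Hoxb (left) and Hoxa (right) genes in cluster order, 1 point per library, with blue for WT colon given spermidine, orange for the AOM-DSS group and bars for group means. Hoxb2 to Hoxb8 lie far apart between groups, Hoxb9 overlaps, and Hoxa7 is higher in all 3 AOM-DSS libraries.

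Immediate early and stress-kinase genes are those that cells switch on within minutes of a stimulus or of tissue handling. Of 32 tested genes 6 fell and none rose, and 15 were lower in all 3 libraries, with a median log2 fold change of -0.56. Plk3, a polo-like kinase of the stress response, was at 57.4, 81.6 and 79.4 CPM with spermidine and at 25.5, 25.1 and 23.7 CPM after AOM-DSS, 2.94-fold lower (log2 fold change -1.56 ± 0.30 SE, adjusted p = 0.015). Dusp1, a phosphatase that switches off MAP kinases, was at 19.5, 31.4 and 57.5 CPM and at 9.07, 8.92 and 13.6 CPM, a 3.44-fold fall (adjusted p = 0.0298). Jun, a subunit of the AP-1 factor, was at 130.0, 235 and 301 CPM and at 76.8, 79 and 86 CPM, 2.75-fold lower (adjusted p = 0.0371). Dusp5, Ier5 and Trib1 fell 2.29-fold, 2.13-fold and 2.1-fold (adjusted p = 0.0234, 0.0346 and 0.0338). In Dusp1, Jun, Ier5 and Dusp5 the first spermidine library was the lowest control and still above every AOM-DSS library. Fos did not pass the test, with means of 167 ± 53.2 and 139.9 ± 12.8 CPM (adjusted p = 0.749), nor did Egr1, with means of 31.4 ± 7.25 and 20.6 ± 11.3 CPM (adjusted p = 0.531). Errfi1, a feedback inhibitor of the EGF receptor, was the only call among 14 genes of EGF family ligands and receptors and fell 2.66-fold from 124, 178 and 172 CPM to 58.3, 53.3 and 67.3 CPM (adjusted p = 0.0174).

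Dusp1 is also a gene whose promoter carries the classical cyclic AMP response element, the 8 letters TGACGTCA, and its sequence is shown because of the 5 called immediate early genes with a RefSeq promoter window it was the one in which the element was found. The 250 bases before its RefSeq start, on the minus strand of chr17:26508473-26508722 (GRCm38.p6), are printed 5′ to 3′ with the element in capitals.

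Dusp1 promoter: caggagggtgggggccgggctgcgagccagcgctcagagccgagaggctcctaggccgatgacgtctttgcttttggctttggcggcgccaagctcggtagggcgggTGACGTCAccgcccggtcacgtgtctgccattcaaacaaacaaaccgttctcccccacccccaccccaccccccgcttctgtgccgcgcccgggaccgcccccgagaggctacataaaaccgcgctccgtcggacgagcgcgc

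The element begins 143 bases before the start and reads the same on both strands. In the 250 bases before each start, it was present in 4 of the 35 promoters of tested immediate early genes in the RefSeq table. These were the promoters of Btg2, Dusp1, Maff and Plk2. The table covered 26 of the 32 genes. Over all 32851 promoters 1.55% held it, as did 8 of 282 promoters of the genes that fell (2.84%) and 4 of 93 promoters of the genes that rose (4.3%). Of these 4 genes only Dusp1 passed the test. Btg2 had means of 161 ± 38.8 and 164 ± 36.8 CPM (adjusted p = 0.952), Plk2 of 13.2 ± 4.32 and 20.1 ± 4.87 CPM (adjusted p = 0.463), and Maff had means of 29.1 ± 4.45 and 15.5 ± 1.78 CPM (adjusted p = 0.0616).

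The inducible heat shock genes Hspa1a and Hspa1b, chosen after their values were seen, fell as well. They are near-identical copies, so the split between them is uncertain. Hspa1a was at 62.4, 44.4 and 90.1 CPM with spermidine and at 4.72, 4.66 and 7.43 CPM after AOM-DSS, 11.7-fold lower (adjusted p = 0.0256), and Hspa1b was at 132, 102 and 215 CPM and at 17.6, 17.8 and 29.7 CPM, 6.89-fold lower (adjusted p = 0.0336). Sod1, the cytosolic superoxide dismutase, was the only call among 25 genes of the NRF2 and redox list. It was at 338, 271 and 279.8 CPM and at 205, 189 and 199 CPM, a 1.5-fold fall (adjusted p = 0.0417).

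Sensory and secretory cell markers moved unequally. In tuft cells, the chemosensory cells of the epithelium, Sh2d6 fell 7.35-fold from 4.03, 2.13 and 3.2 CPM to 0.131, 0.375 and 0.794 CPM (adjusted p = 0.0298). Alox5, the leukotriene-forming lipoxygenase, fell 5.38-fold (adjusted p = 0.0395). Of the 17 tested tuft cell genes 15 were lower and 10 of these in all 3 libraries, with a median log2 fold change of -1.69. Trpm5, the cation channel of tuft cells, had means of 4.25 ± 1.06 and 0.842 ± 0.948 CPM (adjusted p = 0.108). In enteroendocrine cells, which release hormones, 1 of 20 genes rose and 1 fell. The hormone gene Nts (neurotensin) was at 17.7, 17.5 and 6.45 CPM with spermidine and at 0.049, 0.0313 and 0 CPM after AOM-DSS, 422-fold lower (adjusted p = 0.0112). Insm1, a zinc finger factor that builds these cells, was at 4.57, 3.62 and 2.75 CPM and at 21.1, 13.4 and 9.91 CPM and rose 4.06-fold (log2 fold change 2.02 ± 0.47 SE, adjusted p = 0.0298). Myt1, another factor of this lineage and named among the largest rises, went from 0.547, 0.65 and 0.847 CPM to 3.3, 2.42 and 1.24 CPM, 3.41-fold higher (adjusted p = 0.0298). Other genes of the lineage were higher without passing the test, such as Neurog3 with means of 1.11 ± 0.542 and 4.83 ± 4.29 CPM (adjusted p = 0.232) and Pyy with means of 57.2 ± 22.3 and 153 ± 54.5 CPM (adjusted p = 0.232), and Chga had means of 71.4 ± 42.4 and 72.3 ± 8.68 CPM (adjusted p = 0.992). None of the 20 goblet cell and mucus genes passed, with 4 at an unadjusted p under 0.05 and 0 called by DESeq2.

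Lpl and Cidec were the calls in the adipocyte list, and both are also lipid genes of other cells. Lpl, lipoprotein lipase, was at 36, 35 and 36.2 CPM with spermidine and at 5.33, 5.66 and 1.43 CPM after AOM-DSS, 8.56-fold lower (adjusted p = 0.0499). Cidec, a lipid droplet protein, was at 15.5, 22.1 and 34.6 CPM and at 1.5, 1.28 and 1.52 CPM, 16.8-fold lower (adjusted p = 0.0176). The defining fat cell gene Adipoq was near 0 on both sides, at most 0.437 CPM in any of the 6 libraries. Sprr1a, a small proline-rich protein of stressed epithelium, was the only call among 20 antimicrobial and oxidase genes, 12.2-fold lower (adjusted p = 0.0391). From the mitochondrial genome mt-Rnr1, the small ribosomal RNA, fell 3.42-fold (adjusted p = 0.0336), and 13 of the 15 mitochondrial genes were lower in all 3 libraries.

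Synthesis of cholesterol and fatty acids held more rises than any other list. Of 27 genes on that list 6 rose and none fell, 25 were higher and 23 were higher in all 3 libraries, with a median log2 fold change of 0.66. On the cholesterol branch, Mvk (mevalonate kinase) was at 43.2, 38.9 and 36.2 CPM with spermidine and at 69.4, 65.8 and 50.9 CPM after AOM-DSS, 1.57-fold higher (adjusted p = 0.0499). Mvd, which makes the isoprene unit from mevalonate, was at 59.2, 57.9 and 51.9 CPM and at 121, 125 and 84.7 CPM, 1.96-fold higher (log2 fold change 0.97 ± 0.24 SE, adjusted p = 0.0395). Fdps, which joins isoprene units to farnesyl diphosphate, rose 1.84-fold from 151, 140.1 and 127 CPM to 286, 287 and 199.5 CPM (adjusted p = 0.0432), and Nsdhl, a later sterol enzyme, rose 1.58-fold (adjusted p = 0.0377). On the fatty acid branch, Acaca, the acetyl-CoA carboxylase that commits carbon to fat, was at 68.5, 75.7 and 58.6 CPM and at 146, 128 and 122 CPM, 1.95-fold higher (log2 fold change 0.96 ± 0.18 SE, adjusted p = 0.0125). Fasn, the fatty acid synthase, was at 177, 225 and 183 CPM and at 454, 346 and 311 CPM, 1.9-fold higher (adjusted p = 0.0234). The third AOM-DSS library, the shallowest, was the lowest of its group for all of these genes and still above every control.

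Other genes of the list missed the threshold. Scd2, a desaturase of fatty acids, had means of 1045 ± 175 and 2549 ± 199 CPM and a log2 fold change of 1.29 ± 0.39 (SE, adjusted p = 0.086). The sterol-sensing factor Srebf2 had means of 314 ± 24.2 and 398 ± 27.4 CPM (adjusted p = 0.109). In the 250 bases before each RefSeq start, the sterol regulatory element TCACNCCAC was searched on either strand. It was found in 1 of 21 promoters of the list, that of Hmgcs1, and in 1.05% of all promoters. RefSeq promoter windows covered 17 of the 27 genes, and 0 of the 5 promoters of called genes held the element.

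**Figure D4:**
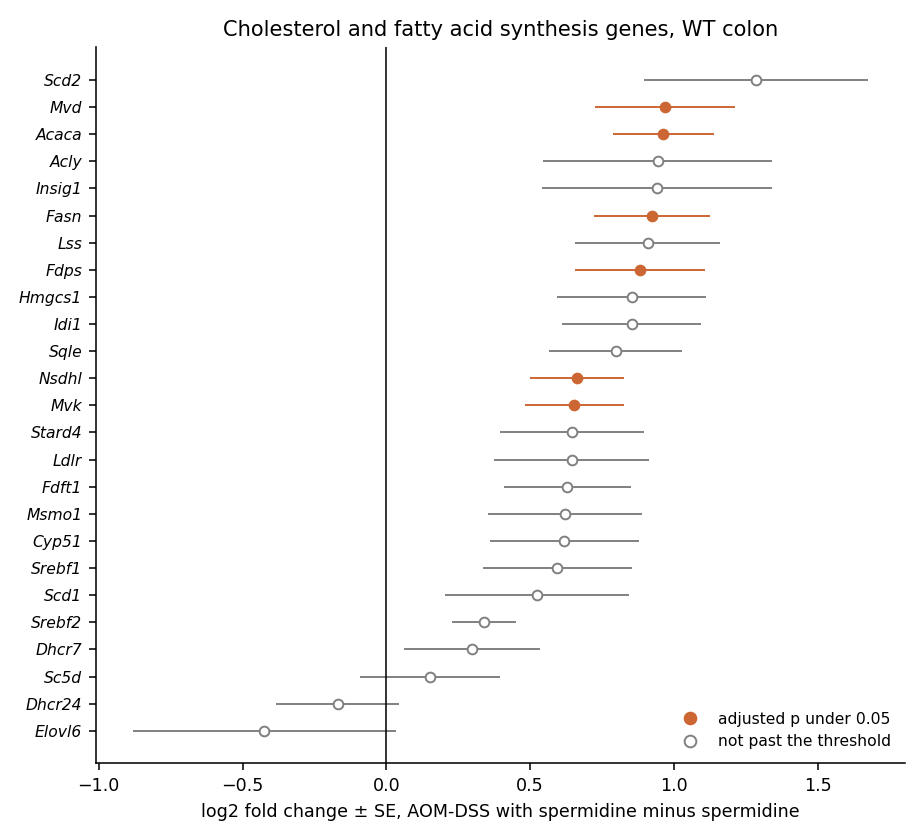
Log2 fold change with its standard error for 25 of the cholesterol and fatty acid synthesis genes, AOM-DSS with spermidine minus spermidine in WT colon, filled orange where the adjusted p was under 0.05. Of the 25 genes drawn 23 lie to the right of 0 and 6 are filled.

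The 15 largest rises by the same rule were of mixed function. Khdc1a, a KH domain gene best known from oocytes, was at 0.146, 0.193 and 0.0192 CPM with spermidine and at 5.69, 8.43 and 1.65 CPM after AOM-DSS, 43-fold higher (log2 fold change 5.42 ± 1.18 SE, adjusted p = 0.0225). Hydin, a gene of motile cilia, was at 0.146, 0.211 and 0.269 CPM and at 3.2, 2.52 and 0.571 CPM, 10-fold higher (adjusted p = 0.0241). Both stayed at low levels. Clca3b, a member of the calcium-activated chloride channel regulator family, was at 195, 194 and 175 CPM and at 790.1, 749 and 794 CPM, 4.13-fold higher with closely grouped libraries on both sides (adjusted p = 0.0462). Ccr2, the chemokine receptor of monocytes, was at 0.419, 1.04 and 0.443 CPM and at 3.54, 3.46 and 1.62 CPM and rose 4.54-fold (adjusted p = 0.0391), and its libraries did not overlap. Cd1d1, which presents lipids to natural killer T cells, rose 3.49-fold (adjusted p = 0.0346). Gatm, the enzyme that starts creatine synthesis from arginine, was at 6.69, 3.15 and 4.83 CPM and at 13.3, 19.4 and 26.7 CPM, 4.05-fold higher (adjusted p = 0.021). Gramd2, Etnppl, Vwa5b2, Cav2, Bicd1 and Mcf2l rose between 2.67-fold and 4.43-fold (adjusted p between 0.0161 and 0.0346).

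Of 32 polyamine genes 1 rose and 1 fell, and the median log2 fold change was -0.08. Ass1, which makes argininosuccinate on the way to arginine, was at 39.4, 31.4 and 30.6 CPM with spermidine and at 88.9, 71.1 and 55.1 CPM after AOM-DSS, 2.12-fold higher (adjusted p = 0.0499). Slc22a3, an organic cation transporter that can carry polyamines, was at 1.18, 1.72 and 2.14 CPM and at 0.0327, 0.0626 and 0.0635 CPM, 31.2-fold lower (adjusted p = 0.036). The synthetic enzyme Odc1 had means of 210.2 ± 33.5 and 156 ± 17.5 CPM (adjusted p = 0.241), and the catabolic acetyltransferase Sat1 had means of 282 ± 77.2 and 208 ± 37.5 CPM (adjusted p = 0.365).

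No gene of the 26 on the cell cycle list passed the test, although all 26 were higher, 15 of them in all 3 libraries, with a median log2 fold change of 0.74. Mki67, a marker of dividing cells, was at 174, 179 and 136 CPM with spermidine and at 353, 189 and 284 CPM after AOM-DSS (log2 fold change 0.76 ± 0.37 SE, adjusted p = 0.257). Top2a was at 118, 127 and 87.2 CPM and at 249.6, 137 and 170.5 CPM (adjusted p = 0.406). The second AOM-DSS library was thus close to the controls in both. DESeq2 called 0 of the 26, and 1 was under 0.05 in unadjusted p in edgeR. Of the crypt-base genes, Lrig1 was at 129.8, 109 and 93.3 CPM and at 222, 199.8 and 219 CPM (adjusted p = 0.133) and Slc12a2 at 276, 252 and 205 CPM and at 475, 409 and 439.8 CPM (adjusted p = 0.186). None of 14 crypt-base and 22 Wnt target genes passed, with 2 and 0 at an unadjusted p under 0.05 and 0 and 0 called by DESeq2. Among p53 targets and alkylation repair genes, Plk3, described above, was the only call of 26.

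No inflammatory list held a call. Over all 19558 genes 1.91% were called, and at that share lists of this size could hold none. The edgeR test called none among 29 neutrophil and acute inflammation genes, 26 interferon genes, 10 MHC class II genes, 15 macrophage genes, 18 T and NK cell genes or 18 B and plasma cell genes. In that order, 1, 1, 1, 1, 3 and 3 of them were under 0.05 in unadjusted p, while the DESeq2 calls numbered 1, 0, 0, 0, 0 and 1. The median log2 fold change was 0.97 for the neutrophil list, -0.32 for interferon genes, -1.55 for MHC class II, 0.45 for macrophages, -0.71 for T and NK cells and 1.59 for B and plasma cells. Cxcl5, a neutrophil chemokine, was at 4.45, 2.04 and 4.54 CPM with spermidine and at 24.5, 9.85 and 1.4 CPM after AOM-DSS (adjusted p = 0.452), so 2 of the 3 AOM-DSS libraries were above the controls and 1 below. Cd74, the class II invariant chain, was at 143, 1631 and 39.7 CPM and at 132, 188 and 123 CPM (adjusted p = 0.345), with the highest value in the second spermidine library. Igha, the constant chain of IgA, was at 80.3, 90.3 and 89.7 CPM and at 87.4, 256 and 26.8 CPM (adjusted p = 0.788). The calprotectin subunit gene S100a8 stayed at or under 2.12 CPM in all 6 libraries. Of 14 Paneth cell and defensin genes none passed, and 2 were under 0.05 in unadjusted p. DESeq2 called 6, of which 5 rose and 1 fell, and the median log2 fold change was 1.71. Of these 14 genes, 7 had 0 counts in all spermidine libraries and 3 in all AOM-DSS libraries, so that median rests in part on few counts. Their summed levels overlapped, at 33.2, 7.78 and 19.2 CPM with spermidine and at 22.2, 29.8 and 13.7 CPM after AOM-DSS. Of 22 genes of regenerating epithelium none passed, with 3 under 0.05 in unadjusted p, 2 called by DESeq2 and a median of 0.04. Counts of 0 also came from the unfolded protein response, clock, extracellular matrix, endothelium, tight junction and prostaglandin lists, with 10, 3, 1, 0, 4 and 4 at an unadjusted p under 0.05 and 0, 2, 0, 0, 3 and 2 called by DESeq2. In these, 15 of 23 unfolded protein response genes were higher in all 3 libraries and 9 of 19 clock genes lower.

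To see how the AOM-DSS change with spermidine related to that without it, WT non-tumor colon after AOM-DSS was compared with untreated WT colon, with 3 libraries on each side and none in common with the comparison above. There 1260 genes were called (6.44%), 345 higher and 915 lower. Of the 85 genes that rose with spermidine 35 also rose without it, 41.2% of the first list and 10.1% of the second. Of the 289 that fell, 156 fell without it as well, 54% of the first list and 17% of the second, and no gene was called in opposite directions. All 289 falls and 74 of the 85 rises had the same sign without spermidine. The median log2 fold change of the 289 was -2.88 with spermidine and -2.005 without it, and that of the 85 rises 0.86 and 0.52. The 374 genes were chosen on the first value of each pair. The calls without spermidine rested on the third untreated library, in which Hoxb8 was at 29.2 CPM beside 5.2 and 2 CPM in the other untreated libraries. Without it 9 genes were called, 2 of the 289 falls and 1 of the 85 rises were shared, the median of the 289 was -1.21 and 273 of them kept the sign. Without the second AOM-DSS library 16 genes were called, and 3 falls and 4 rises were shared, and without the third 481 were called, with 68 falls and 24 rises shared. Position genes had a mean log2 CPM of 1.29 ± 1.61 after AOM-DSS without spermidine and 2.55 ± 1.22 in untreated colon (SD, n = 3 each), and their part in this comparison was not tested. The difference of the 2 changes was tested directly in the same model. No gene of 19558 was called (0%), with 956 at an unadjusted p under 0.05 and a smallest adjusted p of 0.314, against 31 called genes in DESeq2.

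Single genes differed in how near the 2 values were. Slc51a had log2 fold changes of -9.63 with spermidine and -8.74 without, and Acaa1b of -8.13 and -7.60. The Hoxb block was low in both settings, with log2 fold changes for Hoxb6 of -5.89 and -6.01. Acaca had 0.96 and 0.62, and Fasn 0.92 and 0.87. Other genes had unequal values, such as Insm1 with 2.02 and 0.11, Myt1 with 1.77 and -0.63, and Dusp1 with -1.78 and -0.44. None of these differences passed the interaction test (adjusted p = 0.971, 0.917 and 0.971). For Smox itself the log2 fold change was 0.06 with spermidine and 0.83 without it, where it rose (adjusted p = 0.0446), and the difference did not pass (adjusted p = 0.971).

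**Figure D5:**
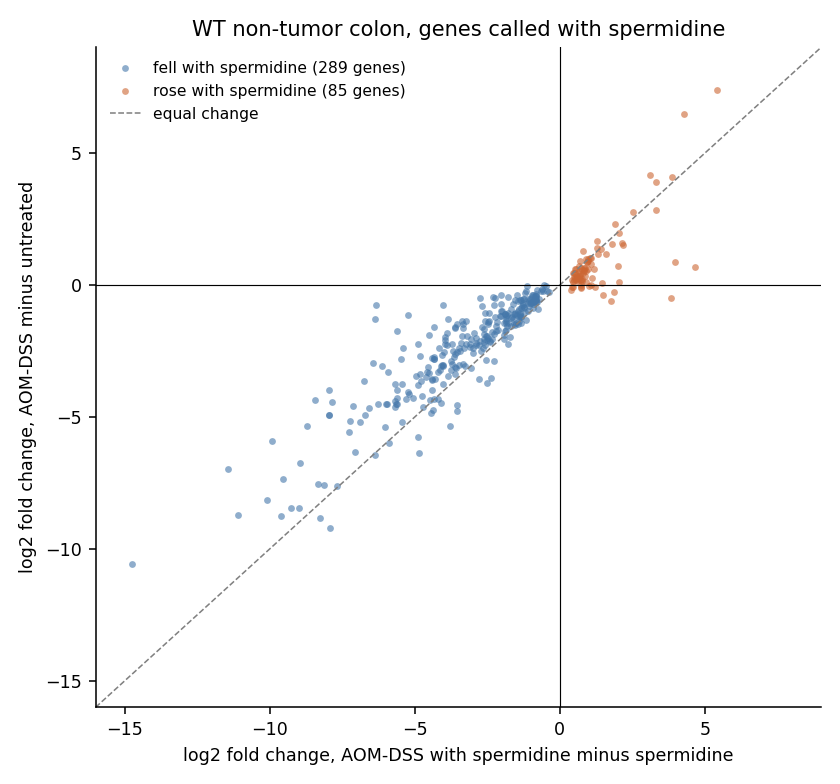
Log2 fold change after AOM-DSS for the 374 genes called in WT colon given spermidine, with spermidine on the horizontal axis and without it on the vertical axis, blue for genes that fell and orange for genes that rose. The 289 falls all lie below 0 on both axes, and the dashed line marks equal change.

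In Smox-/- mice the same treatment pair, AOM-DSS with spermidine against spermidine, gave 4 called genes (0.0205%), with 3193 at an unadjusted p under 0.05. Slc43a1 and Lman1 rose and Prkcb and Trerf1 fell there, and these names were chosen after their values were seen. The 289 genes that fell in WT had a median log2 fold change of -0.78 there and 273 had the same sign, and the 85 that rose had a median of 0.53 with 83 of the same sign. The median of the 289 rested on 1 library that stood apart, while the median of the 85 was 0.62 without that library. Hoxb8 was at 0.711, 0.23 and 22.4 CPM in the Smox-/- libraries after AOM-DSS with spermidine and at 38.5, 27.9 and 10.7 CPM in those with spermidine alone, so the third AOM-DSS library was at the level of the controls. Without that library 83 genes were called, 30 of the 289 WT falls were shared, the median of the 289 was -1.73 and the log2 fold change of Hoxb8 was -5.72, against -1.72 with it and -6.70 in WT. Without the second AOM-DSS library 119 genes were called, and 0 without the first AOM-DSS library or without control 1 or 3, with 1881 to 2609 at an unadjusted p under 0.05. In the test of the difference between genotypes no gene was called (0%), with 1177 at an unadjusted p under 0.05 and a smallest adjusted p of 0.539, against 108 in DESeq2. The mean log2 CPM of the position genes was 0.60 ± 0.38 in Smox mice after AOM-DSS with spermidine and 3.01 ± 0.30 in Smox mice given spermidine (SD, n = 3 each), and the part of this gap in the genotype contrast was not tested.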

How the data were processed

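Gene-level estimated counts, deposited by the authors as whole numbers with 1 column per library, were used for all 30 libraries in 10 groups of 3. Per the submitters' processing notes, fastp, Salmon, DESeq2 and the build GRCm38 were used, and settings and versions are not given in the sources used here. Of 31023 genes, 19558 passed filterByExpr (minimum count 10, minimum total 15), and the 11465 removed held a median of 0.0165% of counts per library. A single edgeR 4.0.16 model (R 4.3.3, limma 3.58.1) of all 10 groups, with TMM scaling, robust quasi-likelihood F tests and 20 residual degrees of freedom, gave each contrast, and p-values were adjusted by the Benjamini-Hochberg method over all genes tested at a threshold of 0.05. CPM used TMM-scaled library totals. The steps were tested on simulated data.

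The 6 libraries compared held 33060607 to 64655937 counts, so counting error is small beside the spread between libraries except for genes with few counts. The p-values rest on the spread between libraries within groups, estimated over all 10 groups together and not from the 6 compared libraries alone. Genes were named from GENCODE vM21 on GRCm38 where the files gave an identifier only, and promoter windows came from RefSeq (GRCm38.p6). The members and the 44 gene lists were chosen with earlier results of these data known. The text names Smox, the 15 largest called rises and falls (groups without overlap, the higher averaging 2 CPM or more and the lower holding 3 counts or more in all), up to 6 called genes per list and, for lists without a call, up to 3 of the most abundant. Predicted genes, receptor segments, mitochondrial and Y-linked genes were left out of the largest changes. Alternatives were RLE size factors, no filter on low counts, a requirement of 1 CPM in 3 libraries, a fit of the compared groups alone, omission of 2 atypical libraries, a position covariate, DESeq2 1.42.0 and omission of each library, and, chosen after seeing the data, omission of spermidine libraries 1 and 3 together and omission of each library in the 2 other AOM-DSS comparisons. Some genes that the rule names are not reported here.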

Additional observations from a re-analysis of the deposited data

How the results depend on the processing

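Against 374 called genes, RLE size factors gave 354, no filter 296 and a filter of 1 CPM in 3 libraries 401. A fit of the 6 compared libraries alone gave 2436, omission of the 2 atypical libraries (the third untreated WT library and the first Smox library after AOM-DSS with spermidine) 1423, the position covariate 650 and DESeq2 1195, and the cause of these shifts was not tested. Omission of spermidine libraries 1 and 3 together, chosen after seeing the data, gave 0, but left 1 control library, assumed to vary like the other groups, so this count says nothing of what those libraries hold. Omission of single libraries gave 0 to 360. The split of rises and falls was 85 and 289, and it was 952 and 1484 in the fit of 6 libraries, 68 and 286 with RLE and 28 and 268 without a filter. All of the 374 genes that could be fitted kept their direction in each of these alternatives. Since the alternatives reuse the libraries on which the genes were chosen, that outcome was nearly fixed in advance. Of 73 named called genes, 52, 29 and 12 were still called without spermidine library 1, 2 or 3 and 0 without any 1 AOM-DSS library, and DESeq2 called all 73. For the difference with and without spermidine the count of 0 became 31 in DESeq2 and ranged from 0 to 0 over omitted libraries. For the difference between Smox and WT it became 3 with the compared groups alone, 108 in DESeq2 and ranged from 0 to 2 over omitted libraries, with 2 reached without the second Smox library after AOM-DSS with spermidine. No paired analysis was possible because the labels number no replicates that tie libraries across groups. Genes near 0 counts after AOM-DSS have folds that depend on a few counts. Leaving out single libraries, also chosen after seeing the data, moved the calls from 1260 to between 9 and 1941 in WT without spermidine and from 4 to between 0 and 119 in Smox-/- mice with it.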
